A study of Homo sapiens with 12 samples.

Results

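Growth differentiation factor 15 (GDF15) and 9 genes of the integrated stress response were followed in HCT116 cells given ammonium chloride, TGF-β or both. HCT116 is an established human colorectal carcinoma line. The 10 genes are GDF15, ATF4, DDIT3, ATF3, TRIB3, CHAC1, SESN2, ASNS, PSAT1 and DDIT4, out of 25733 genes with values. They were chosen by NH4Cl changes already known from these same libraries, including that of GDF15, together with textbook membership of the pathway. Their levels with and without NH4Cl are therefore a description. No p-value of a single gene is given for them, and counts of the 10 that pass are only set beside the share of all genes. Their response to TGF-β, which did not choose them, was tested.

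Total RNA was sequenced from 4 groups of 3 libraries each. The labels name untreated control cells and cells given TGF-β, NH4Cl or both, without doses or times. In the study's methods for cell treatments, NH4Cl at 10 mM lasted 24 h, or 23 h and then TGF-β at 200 pM for 1 h where TGF-β was used. Nothing states that the replicates were separate cultures, so p-values measure only the spread between these libraries, which may be technical. Epithelial markers fitted the cell line, with a median of 251 FPKM for EPCAM, 801 FPKM for KRT8 and 13.5 FPKM for CDX2 over the 12 libraries. FPKM is the number of fragments scaled by exon length and library size. The leukocyte markers CD3E and CD14 stayed at or below 0.280 and 0.937 FPKM, the endothelial marker PECAM1 at or below 0.0911 FPKM and the fibroblast marker COL1A2 at or below 0.0185 FPKM. VWF, another endothelial gene, lay between 1.27 and 6.44 FPKM and COL1A1 between 1.14 and 2.62 FPKM.

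The integrated stress response begins when one of several kinases phosphorylates the translation factor eIF2α, which lowers general protein synthesis and favours translation of the mRNA for ATF4. ATF4 is a transcription factor that switches on genes for amino acid synthesis and transport and further regulators such as CHOP, the product of DDIT3. GDF15 is a secreted member of the TGF-β superfamily that signals through the receptor GFRAL with RET in the brainstem and rises in many kinds of cell stress. Because ATF4 is regulated largely at translation, its mRNA level does not measure the activity of the pathway.

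GDF15 lies at chr19:18374731-18389176 on the plus strand and TRIB3 at chr20:362835-397559 on the plus strand (GENCODE release 29, GRCh38). The promoter windows of these 2 genes are shown because they had the largest NH4Cl differences among the 10. Each is a RefSeq window (GRCh38.p14) from 250 bases before to 50 bases after an annotated start, read 5′ to 3′ on the gene's strand. The GDF15 window is chr19:18385908-18386207 and the TRIB3 window, the first of 3 held for that gene, is chr20:381045-381344.
GDF15: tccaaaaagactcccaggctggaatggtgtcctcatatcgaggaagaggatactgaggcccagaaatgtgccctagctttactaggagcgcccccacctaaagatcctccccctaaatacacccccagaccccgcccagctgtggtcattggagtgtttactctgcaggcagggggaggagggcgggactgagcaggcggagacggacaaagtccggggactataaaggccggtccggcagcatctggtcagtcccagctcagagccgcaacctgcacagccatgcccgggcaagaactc
TRIB3: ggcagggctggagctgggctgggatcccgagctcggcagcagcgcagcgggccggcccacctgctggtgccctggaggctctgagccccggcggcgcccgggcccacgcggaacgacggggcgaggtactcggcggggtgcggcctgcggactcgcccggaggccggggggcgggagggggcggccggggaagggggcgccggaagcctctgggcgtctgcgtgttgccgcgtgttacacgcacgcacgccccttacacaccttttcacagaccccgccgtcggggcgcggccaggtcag

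The motif TGATGNAA, the core of the C/EBP-ATF response element, was searched on both strands of all 300-base windows. It was present in 1270 of 35116 windows (3.62%), and in 3 of the 16 windows of the 10 genes, 1 each of ATF3, CHAC1 and ASNS. The letters were not found in the windows printed for GDF15 and TRIB3. The 3 matches are given with 8 flanking bases on each side and the motif in capitals. For ASNS it lies at chr7:97872469-97872476, 68 bases before the start. For ATF3 it lies at chr1:212565216-212565223, 191 bases before the start, and for CHAC1 at chr15:40953262-40953269, 209 bases before the start and on the other strand. A match describes the letters only.
ASNS: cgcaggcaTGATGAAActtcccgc
ATF3: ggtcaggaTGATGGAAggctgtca
CHAC1: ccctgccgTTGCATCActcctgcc

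All 10 genes passed the filter of a mean of at least 1 FPKM over the 12 libraries, as did 12341 genes in all. Averaged over the libraries, ATF4 stood at 195 FPKM, TRIB3 at 138 FPKM and PSAT1 at 59.9 FPKM, and TRIB3 exceeded ATF4 in replicate 3 of both groups given NH4Cl. DDIT4, GDF15 and DDIT3 followed at 19.0, 13.8 and 13.2 FPKM, and their ranges over the libraries overlapped. GDF15 averaged less than DDIT3 in the groups without NH4Cl and more in those with it. ATF3 averaged 8.53 FPKM, SESN2 6.18 FPKM and CHAC1 4.92 FPKM, again with overlapping ranges. ASNS was lowest at 1.67 FPKM and rested on only 47 to 219 reads per library, against 224 to 908 reads for GDF15.

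The libraries numbered 3 stood apart in every group. They carried 4.50% to 5.12% mitochondrial reads, against 2.46% to 3.18% in the libraries numbered 1 and 2. Of the 10 genes, 9 were higher in replicate 3 than in replicates 1 and 2 in all 4 groups, where 25.0% of all tested genes were, and PSAT1 was the exception. DDIT4, an inhibitor of mTORC1 signalling, showed the widest gap, with replicate 3 at 4.04 to 5.35 times the mean of the other 2 libraries of its group. For DDIT3 the ratio ran from 2.20 to 3.23, for TRIB3 from 1.74 to 2.31 and for GDF15 from 1.44 to 1.63. The median shift of the 10 genes in replicate 3 was 0.90 on the log2(FPKM + 1) scale, against -0.0088 for all tested genes. With every library scaled to the same sum the medians were 0.75 and -0.15, and the same 9 genes remained higher in replicate 3 of every group, where 12.4% of all tested genes were. What set these libraries apart was not tested. In whole-culture RNA, fewer cells carrying a transcript and less of it per cell cannot be told apart.

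**Figure D1:**
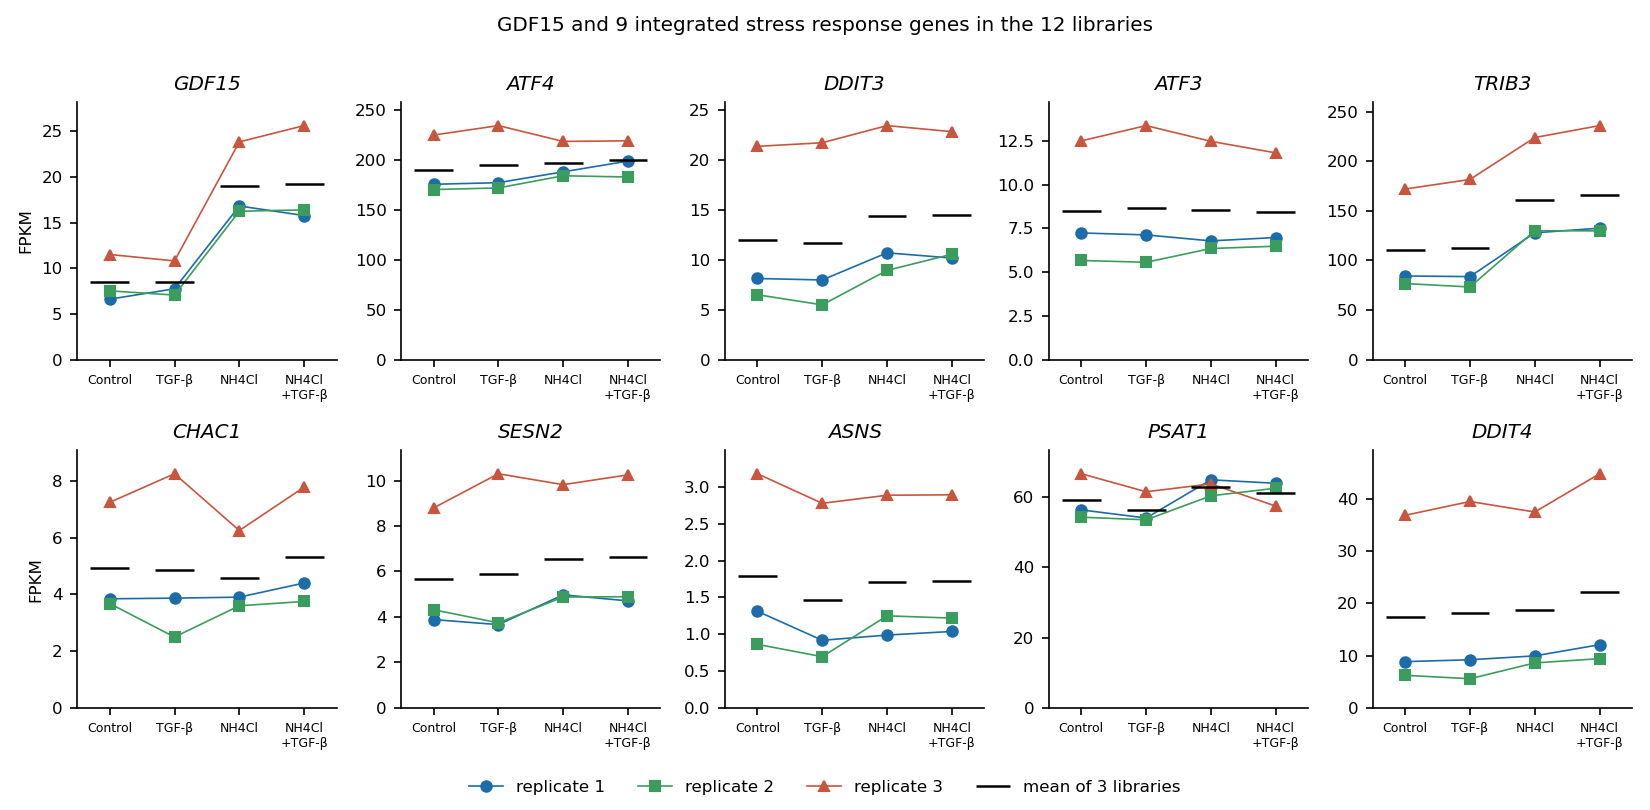
FPKM of the 10 genes in each library, by group, on axes that start at 0. Points of 1 colour share a replicate number and are joined for legibility, and black bars are means of 3 libraries; replicate 3 lies highest in every group for 9 of the 10 genes, and GDF15 separates by NH4Cl in all of them.

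GDF15 read 6.62, 7.53 and 11.5 FPKM in control replicates 1, 2 and 3, and 16.8, 16.2 and 23.8 FPKM in the NH4Cl replicates. With TGF-β alone it read 7.76, 7.07 and 10.8 FPKM, and with both agents 15.8, 16.4 and 25.6 FPKM. Every library given NH4Cl lay above every library without it, even though replicate 3 was highest in each group. The group means were 8.55 ± 2.60 FPKM in control cells and 19.0 ± 4.23 FPKM with NH4Cl (SD, n = 3). Within a replicate number, NH4Cl libraries held 2.54, 2.16 and 2.07 times the control level, and libraries with both agents 2.03, 2.32 and 2.37 times the level with TGF-β alone. On the log2(FPKM + 1) scale, which understates changes of low genes, the difference was 1.08 for NH4Cl against control and 1.07 for both agents against TGF-β. Its standard error was 0.24 across all libraries and 0.06 once the replicate number entered the model as a block. GDF15 ranked 10 from the top of 12341 genes by NH4Cl difference against control, and 11 against TGF-β. As GDF15 was proposed with this difference known, the standard errors and ranks describe it and test nothing.

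TRIB3, a pseudokinase induced by ATF4 and CHOP, read 84.4, 76.7 and 172 FPKM in control cells and 128, 130 and 224 FPKM with NH4Cl. It read 83.7, 73.3 and 182 FPKM with TGF-β and 133, 130 and 236 FPKM with both. The groups overlapped, because control replicate 3 lay above NH4Cl replicates 1 and 2, yet each NH4Cl library exceeded the control of its own number. The ratios within a number were 1.52, 1.69 and 1.30 against control. The log2 difference was 0.58 against control and 0.62 for both agents against TGF-β, with a standard error of 0.41 across all libraries and 0.08 under the replicate block. TRIB3 ranked 99 and 85 of 12341 genes in these 2 comparisons. Its standard errors and ranks are likewise only a description.

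Among the transcription factors, DDIT3 read 8.13, 6.50 and 21.4 FPKM in control cells and 10.7, 8.94 and 23.5 FPKM with NH4Cl. With TGF-β it read 7.99, 5.49 and 21.7 FPKM and with both agents 10.2, 10.6 and 22.8 FPKM. Its groups overlapped throughout, and the NH4Cl library was the higher one in 3 of 3 pairs in both comparisons. Of its 1307 exon bases, 355 are shared with MARS on the opposite strand, a gene at 27.4 to 33.3 FPKM here, so its level is uncertain where counting ignored strand. ATF4 itself differed little, at 190 ± 30.1 FPKM in control cells and 197 ± 18.8 FPKM with NH4Cl (SD, n = 3). Reads of its processed pseudogenes may also be shared with it. ATF3, a stress-inducible repressor and activator, stood at 8.46 ± 3.58 FPKM in control cells and 8.53 ± 3.42 FPKM with NH4Cl. Both genes had NH4Cl differences of mixed sign over the 3 pairs.

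The remaining genes are effectors. DDIT4 read 8.84, 6.22 and 36.9 FPKM in control cells and 9.95, 8.60 and 37.5 FPKM with NH4Cl. It read 9.20, 5.57 and 39.5 FPKM with TGF-β and 12.1, 9.41 and 44.8 FPKM with both agents. Replicate 3 set the range of every group, and within numbers the libraries with NH4Cl were higher in 3 of 3 pairs in either comparison. DDIT4 shares 41.2% of its exon bases with the antisense gene DDIT4-AS1. SESN2, which restrains mTORC1 when leucine is scarce, was higher in 3 of 3 pairs against control and in 2 of 3 against TGF-β. CHAC1, which degrades glutathione, averaged 4.92 ± 2.01 FPKM in control cells and 4.59 ± 1.45 FPKM with NH4Cl. ASNS, the asparagine synthetase, averaged 1.79 ± 1.23 and 1.71 ± 1.03 FPKM, and 44.6% of its exon bases are shared with another transcript of the same strand. PSAT1, an enzyme of serine synthesis, averaged 59.1 ± 6.62 and 63.0 ± 2.37 FPKM. For CHAC1, ASNS and PSAT1 the control and NH4Cl libraries overlapped.

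**Figure D2:**
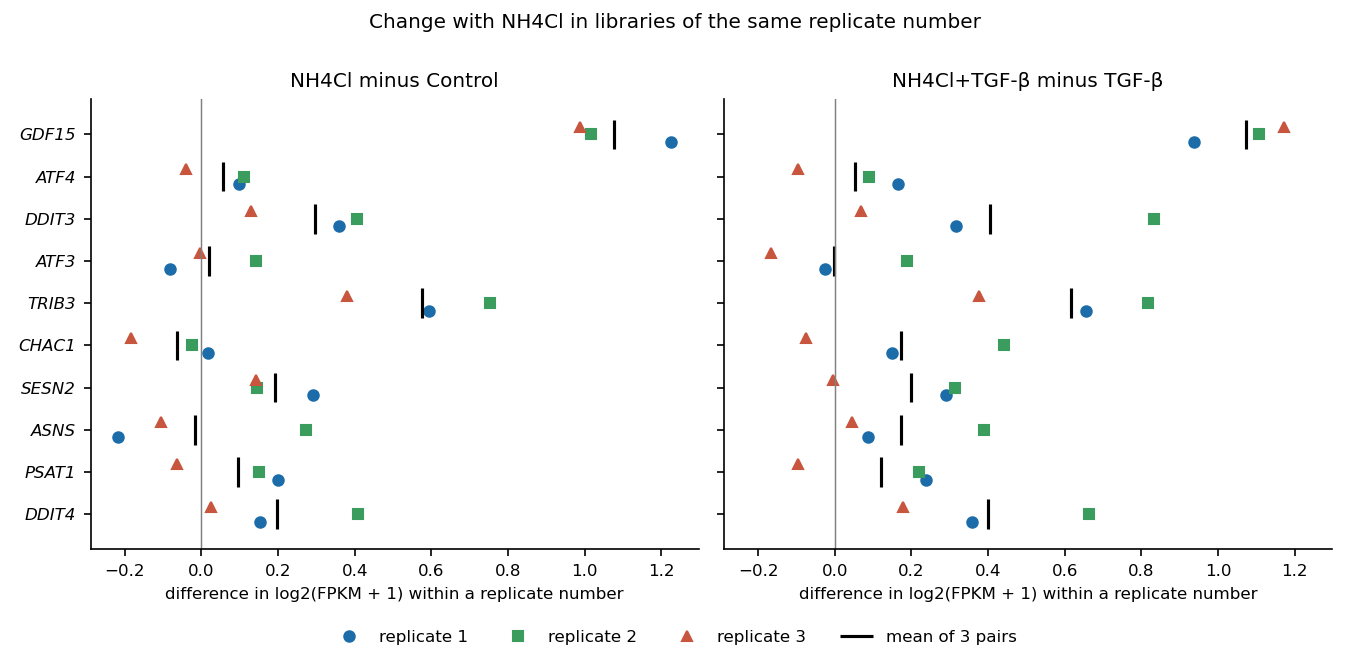
Difference in log2(FPKM + 1) between libraries of the same replicate number, for NH4Cl minus control (left) and both agents minus TGF-β (right). Symbols are replicate numbers and black bars the mean of 3 pairs; GDF15, TRIB3, DDIT3 and DDIT4 lie to the right of 0 in all 6 pairs, and GDF15 and TRIB3 have the highest means.

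Counts over the 10 genes depended on how the replicate number was handled. With limma on 4 group means and no block, 0 of 10 passed an adjusted p of 0.05 for NH4Cl against control, where 0.381% of all tested genes did, and 1 of 10 had an unadjusted p under 0.05, as had 1333 of 12341 genes. Both agents against TGF-β gave 0 of 10 beside 1.03%, and against control 0 of 10 beside 0.948%, again with 1 of 10 at an unadjusted p under 0.05 in each, beside 1642 and 1618 of 12341 genes. Libraries of the same number deviated together, most clearly those numbered 3, and whether numbers 1 and 2 pair across groups was not tested. With the number as a replicate block the count for NH4Cl against control was 2 of 10 beside 13.6% of all genes. Against TGF-β, both agents gave 4 of 10 beside 18.8%, and against control 3 of 10 beside 18.4%. All of these were higher with NH4Cl, where 7.42%, 10.3% and 10.7% of all genes passed as higher in the same 3 comparisons. The comparisons share libraries, and since NH4Cl values chose the genes nothing is read from the counts.

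Leaving out 1 library moved these paired counts. For both agents against TGF-β the count dropped to 2 without TGF-β replicate 2, NH4Cl+TGF-β replicate 1 or NH4Cl+TGF-β replicate 2. For both agents against control it reached 5 without TGF-β replicate 3. The share of all genes that passed in these refits is not given here, so nothing is read from the changes. Replicates 1 and 2 alone, with no block, gave 3 of 10 for NH4Cl against control beside 10.5% of all genes, 4 of 10 for both agents against TGF-β beside 14.1% and 3 of 10 for both against control beside 13.2%. Without the block, the sign of the NH4Cl difference against control turned in 7 of 10 genes when single libraries were left out, the exceptions being GDF15, TRIB3 and PSAT1. With the block it turned in 3 of 10, ATF3, CHAC1 and ASNS. In NH4Cl against control, 1 of 10 genes had groups that did not overlap with NH4Cl higher (9.58% of all tested genes), and 5 of 10 were higher in 3 of 3 pairs (26.4%). In both agents against TGF-β the numbers were 1 of 10 (8.90%) and 5 of 10 (25.2%).

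**Figure D3:**
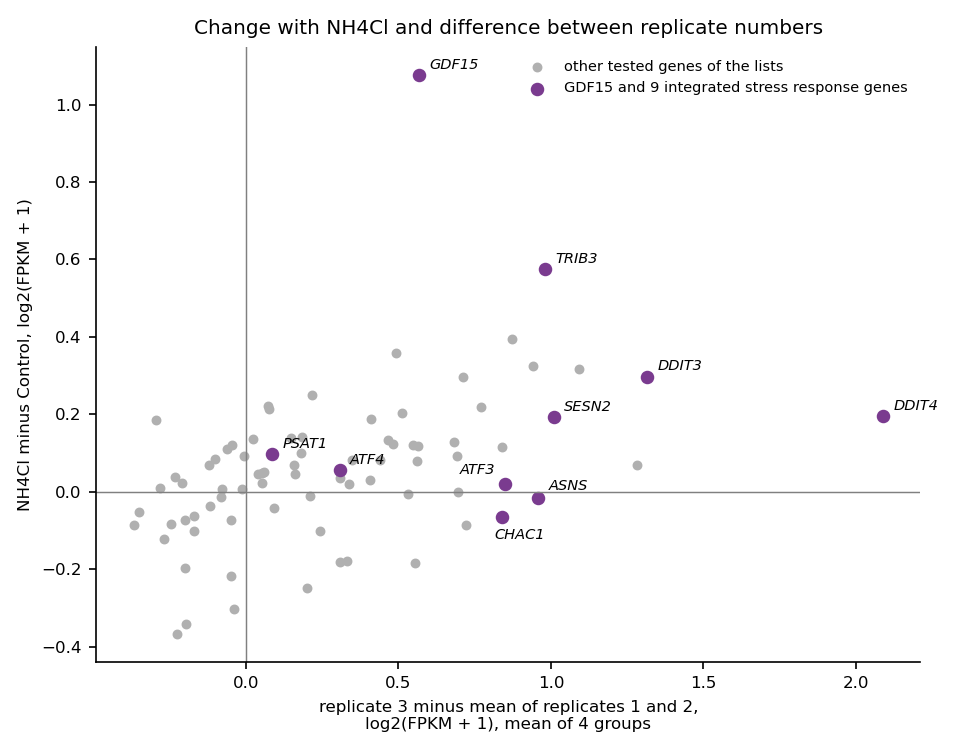
NH4Cl difference against control (vertical, log2(FPKM + 1)) and shift of replicate 3 from replicates 1 and 2 (horizontal, same scale, mean of 4 groups) for the 10 genes in purple and other tested genes of the lists in grey. GDF15 has the highest NH4Cl difference at a replicate shift of 0.57, and DDIT4 the widest replicate shift, 2.09, at an NH4Cl difference of 0.20.

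TGF-β was compared with its matching group to ask for a response of the 10 genes after 1 h. GDF15 averaged 8.55 ± 2.60 FPKM in control cells and 8.55 ± 1.99 FPKM with TGF-β, and 19.0 ± 4.23 and 19.3 ± 5.51 FPKM in the matching NH4Cl groups (SD, n = 3). No gene of the 10 passed for TGF-β against control in limma without the block (0 of 10, 0% of all genes), where the log2 differences ran from -0.18 for ASNS to 0.03 for ATF4 at an adjusted p of 1.00, and 103 of all 12341 genes had an unadjusted p under 0.05, against 422 with the block. With the replicate block the count was also 0 of 10 beside 0.00810% of all genes, with a lowest adjusted p of 1.00. Neither model gave any of the 10 an unadjusted p under 0.05. ASNS was lower with TGF-β in 3 of 3 pairs, by -0.18 with a standard error of 0.10 under the block, and its groups overlapped. PSAT1 was also lower and ATF4 higher in 3 of 3 pairs, at -0.06 and 0.03.

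With NH4Cl present, TGF-β gave 0 of 10 beside 0% without the block and 0 of 10 beside 0.00810% with it. The log2 differences ran from -0.04 for PSAT1 to 0.21 for DDIT4, and the lowest adjusted p in limma with the block was 0.707, for DDIT4, which was higher in 3 of 3 pairs, as was CHAC1 at 0.15. Over all genes, 165 had an unadjusted p under 0.05 here without the block and 879 with it, and 115 and 537 for the interaction. The interaction, which asks whether the NH4Cl difference depends on TGF-β, passed for 0 of 10 in both models beside 0% of all genes, with a lowest adjusted p of 0.992 under the block. It was -0.0040 for GDF15 with a standard error of 0.08 and 0.24 for CHAC1 with a standard error of 0.16. None of the 10 had an unadjusted p under 0.05 for either question. When single libraries were left out of the model without the block, all 10 genes took both signs in each of the 3 comparisons, and leaving out a library numbered 3 there also shifts its group mean. With the block, both signs were seen in 9 of 10 genes for TGF-β against control (not ASNS), 8 of 10 with NH4Cl present (not CHAC1 or DDIT4) and 7 of 10 for the interaction (not ASNS, CHAC1 or DDIT4). A p that misses the threshold does not show that levels were equal.

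Other genes of the pathway were taken from 7 lists holding 43 genes, of which 40 passed the level filter. In limma without the block 0 of 40 passed in either NH4Cl comparison, and 2 of 40 had an unadjusted p under 0.05 in each, beside 1333 and 1642 of all 12341 genes. With the replicate block, 8 of 40 passed for NH4Cl against control, 7 higher and 1 lower, beside 13.6% of all genes. For both agents against TGF-β 12 of 40 passed, 10 higher and 2 lower, beside 18.8%. Their median log2 difference was 0.06 and 0.05, against 8.4e-05 and -5.7e-05 for all tested genes. The first count fell to 5 without control replicate 1, 4 without control replicate 2 or NH4Cl replicate 1 and 3 without NH4Cl replicate 2. The second fell to 7 without TGF-β replicate 1 or TGF-β replicate 2. Of the 40 genes, 20 were higher and 9 lower in replicate 3 of all 4 groups. In lists of more than 4 genes, here and below, the 3 genes named had the largest NH4Cl differences against control. Their adjusted p-values for that comparison therefore describe picked genes. Adjusted p-values in the list results are from limma with the replicate block, and none of the named list genes passed in the model of all 12 libraries without it. The refits without 1 library also used the block. Without the block, leaving out 1 library turned the sign for some genes whose calls held in all 12 refits. These were CEBPB, STC2 and HSPA5 against control and STC2 against TGF-β. Replicates 1 and 2 alone without the block, added after seeing the data, gave passes against control for CEBPB, PSPH, SLC38A2, SLC1A5, STC2, CALR, BBC3 and TP53I3. Against TGF-β they gave EIF2AK1, CEBPB, CEBPG, PSPH, SLC38A2, SLC1A5, VEGFA, STC2, CALR, BBC3 and TRIB1. Each named list gene that passed with the block had the same direction in 3 of 3 pairs, while SLC1A5 against control and EIF2AK1 against TGF-β, which passed only with replicates 1 and 2, were mixed in sign over the 3 pairs.

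At the start of the pathway, 0 of 4 eIF2α kinases passed in either comparison in limma with the block, with 0 and 2 at an unadjusted p under 0.05 beside 3585 and 4124 of 12341 genes. Against TGF-β 1 passed without TGF-β replicate 3 or NH4Cl+TGF-β replicate 3, and EIF2AK1 passed with replicates 1 and 2 only and no block (-0.18, adjusted p = 0.0104). HRI (EIF2AK1) averaged 49.6 ± 3.03 FPKM in control cells and PKR (EIF2AK2) 9.45 ± 1.77 FPKM. PERK (EIF2AK3) averaged 3.99 ± 0.609 FPKM and GCN2 (EIF2AK4) 5.15 ± 0.757 FPKM (SD, n = 3). Of 8 subunits of eIF2 and its exchange factor eIF2B, 1 passed against control, near the 13.6% of all genes, and 0 against TGF-β. EIF2B1 was lower with NH4Cl in 3 of 3 pairs (log2 difference -0.20, adjusted p = 0.0156), a call kept in 8 of 12 refits without 1 library and lost without control replicate 1 or 2 or NH4Cl replicate 1 or 2. EIF2B1 did not pass against TGF-β (-0.07, adjusted p = 0.320). EIF2B3 and EIF2B5, at -0.12 and 0.11 against control, passed in neither comparison. Of the eIF2α phosphatase subunits 0 of 2 passed in either comparison, with 1 and 0 at an unadjusted p under 0.05. Against control PPP1R15A was at -0.09 and PPP1R15B at 0.14. Among ATF4 partners and other stress factors 1 of 4 passed against control, higher, beside 13.6% of all genes. Against TGF-β 3 of 4 passed, 2 higher and 1 lower, beside 18.8%. CEBPB rose in 3 of 3 pairs of both comparisons, by 0.22 (adjusted p = 0.00558) and 0.28 (adjusted p = 0.00136), and the call held in all 12 refits of each. CEBPG, at 0.08 against control, rose by 0.19 against TGF-β (adjusted p = 0.00389), and ATF5 fell by 0.21 there (adjusted p = 0.0114), a call lost without TGF-β replicate 2.

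In amino acid synthesis 1 of 9 genes passed against control and 2 of 9 against TGF-β, near the shares of all genes (13.6% and 18.8%). The first was 2 without control replicate 3 or NH4Cl+TGF-β replicate 1 or 3, and the second 1 without TGF-β replicate 1 or 2 or NH4Cl+TGF-β replicate 1. PSPH, the last enzyme of serine synthesis, rose from 25.7 ± 2.02 to 30.1 ± 0.781 FPKM, by 0.22 (adjusted p = 0.0191), in 3 of 3 pairs and in 8 of 12 refits, with the call lost without control replicate 1 or 2 or NH4Cl replicate 1 or 2. CBS and CTH, enzymes of cysteine synthesis, had larger differences of 0.36 and 0.30 against control but did not pass there (adjusted p = 0.298 and 0.0745). In amino acid transport 1 of 7 passed against control, also near that share and 2 without NH4Cl replicate 3, and 3 of 7 against TGF-β, 2 higher and 1 lower, which fell to 1 without control replicate 2, TGF-β replicate 1 or 2 or NH4Cl+TGF-β replicate 1 or 3. The glutamine carrier SLC38A2 rose by 0.20 (adjusted p = 0.00868) and 0.23 (adjusted p = 0.00375), in 3 of 3 pairs each, the first call being lost without NH4Cl replicate 2. SLC1A5 and SLC1A4, at 0.14 each against control, did not pass there. SLC1A5 passed against TGF-β at 0.18 (adjusted p = 0.0401), in 3 of 3 pairs but only 4 of 12 refits. Among other targets of ATF4 or CHOP 4 of 6 passed in each comparison, all higher, where 7.42% and 10.3% of all genes passed as higher. The first count fell to 2 without control replicate 2 or 3 or any 1 NH4Cl library, and the second to 2 without TGF-β replicate 1. VEGFA rose by 0.32 and 0.35 (adjusted p = 0.00531 and 0.00289) and STC2 by 0.32 and 0.27 (adjusted p = 0.00197 and 0.00299), each in 3 of 3 pairs and in all 12 refits. KLHL24 rose by 0.19 against control (adjusted p = 0.0239), in 7 of 12 refits, the call being lost without control replicate 2 or 3 or any 1 NH4Cl library. Against TGF-β KLHL24 rose by 0.20 (adjusted p = 0.0132), a call lost without TGF-β replicate 1 or NH4Cl+TGF-β replicate 2. All 6 of these targets were higher in replicate 3 of every group.

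**Figure D4:**
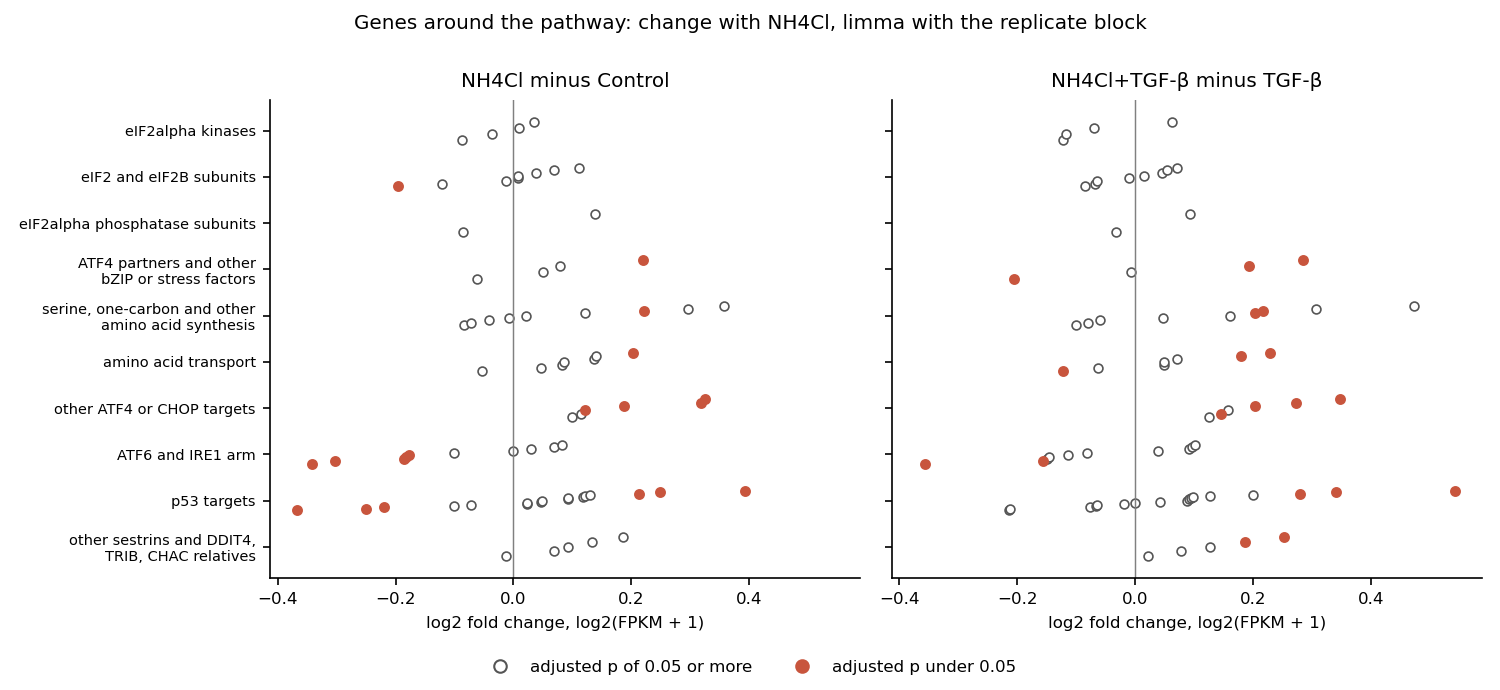
Log2 differences of every tested list gene for NH4Cl minus control (left) and both agents minus TGF-β (right), from limma with the replicate block. Filled points passed an adjusted p of 0.05, as did 13.6% (left) and 18.8% (right) of all tested genes. Among other ATF4 or CHOP targets 4 of 6 passed as higher in each panel, and the 5 that passed on the left in the ATF6 and IRE1 arm were lower.

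Further lists were set beside the pathway. The ATF6 and IRE1 arm of the unfolded protein response had 5 of 10 genes lower and 0 higher with NH4Cl against control, and 2 lower against TGF-β, with medians of -0.14 and -0.10, beside 13.6% and 18.8% of all genes passing in either direction. The count of 5 fell to 3 without control replicate 2 or 3 or NH4Cl replicate 1, and that of 2 to 1 without TGF-β replicate 1 or 3 or NH4Cl+TGF-β replicate 3. Of these 10 genes 8 were higher and 1 lower in replicate 3 of every group. The chaperone CALR fell from 326 ± 27.2 to 257 ± 13.7 FPKM, by 0.34 (adjusted p = 5.7e-04), in 3 of 3 pairs. SDF2L1 fell by 0.30 (adjusted p = 0.0197) in 8 of 12 refits, not without replicate 1 or 3 of control or NH4Cl, and HSPA5 fell by 0.19 (adjusted p = 0.00516) in all 12. HSPA5 at -0.08 and SDF2L1 at -0.15 (adjusted p = 0.175) did not pass against TGF-β, and SDF2L1 was mixed in sign over the 3 pairs there. CALR did pass there, at -0.36 (adjusted p = 3.9e-04), lower in 3 of 3 pairs. Of 17 tested p53 targets, 3 passed as higher and 3 as lower against control. Against TGF-β 3 passed, all higher, near the 18.8% of all genes that passed there. The count of 6 against control, beside 13.6% of all genes, fell to 2 without NH4Cl replicate 1 and to 3 without NH4Cl replicate 2 or any 1 control library. BBC3, which encodes the pro-apoptotic protein PUMA, rose by 0.39 (adjusted p = 0.00514) and 0.54 (adjusted p = 8.9e-04). TP53I3 fell by 0.37 (adjusted p = 0.0120), a call lost without NH4Cl replicate 1 or 2, and PHLDA3 fell by 0.25 (adjusted p = 0.0367), in 7 of 12 refits, the call being lost without any 1 control library or NH4Cl replicate 1 or 3. Of 5 tested relatives of the sestrin, DDIT4, TRIB and CHAC genes, 0 passed against control, with 2 at an unadjusted p under 0.05 in limma with the block, while 1 passed without NH4Cl+TGF-β replicate 2 and 2 without NH4Cl+TGF-β replicate 3. Against TGF-β 2 passed, beside 18.8% of all genes. They were CHAC2 at 0.19 (adjusted p = 0.0415, lost in 9 of 12 refits and kept without NH4Cl replicate 2 or 3 or NH4Cl+TGF-β replicate 3) and TRIB1 at 0.25 (adjusted p = 0.00479, in all 12). SESN1, at 0.09 against control and 0.13 against TGF-β, passed in neither comparison. The GDF15 co-receptor RET averaged 0.0446 FPKM in control cells and 0.0662 FPKM with NH4Cl, under the level filter, and GFRAL was not analysed here.

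The genes most like GDF15 were ranked by Pearson's r over the 12 libraries after the mean of the 4 libraries of the same number was taken off. These libraries share their 4 treatments, so r mostly reflects the pattern across groups and is given as a description with no p. The 8 highest were CHST11, GOLIM4, ACSS2, PKLR, SNRNP48, PCBP3, SLC5A3 and SCD, with r from 0.987 to 0.993. CHST11, a chondroitin sulfotransferase, averaged 25.8 ± 2.72 FPKM in control cells and 36.2 ± 2.98 FPKM with NH4Cl. ACSS2, which makes acetyl-CoA from acetate, averaged 38.8 ± 12.6 and 73.5 ± 24.8 FPKM. SLC5A3, a myo-inositol transporter, averaged 9.68 ± 1.52 and 16.4 ± 3.08 FPKM, and SCD, a fatty acid desaturase, 310 ± 54.6 and 423 ± 65.0 FPKM (SD, n = 3). Without the centring 2 of these 8 stayed among the highest 8. Among the other 9 stress response genes, TRIB3 was most like GDF15 (r = 0.952), with 1.64% of all genes above it, followed by DDIT3 at 0.814, SESN2 at 0.786 and DDIT4 at 0.768, with 10.4% to 13.2% of all genes above them, while CHAC1 stood at 0.217 and ATF3 at 0.0395.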

How the data were processed

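Total RNA of HCT116 cells was sequenced in 12 libraries, 3 for each of 4 groups named by the labels. The authors deposited FPKM values for 25733 genes, which were not on a log scale. The submitters' processing notes name Trimmomatic 0.36, STAR 2.5.2b, featureCounts of Subread 1.5.2 and DESeq2 on GRCh38, and the annotation release is not given in the sources used here. The study's methods name HTSeq in place of featureCounts, and whether counting used strand is not stated. FPKM values times GENCODE release 29 exon lengths were whole multiples of 1 read (tolerance 0.05), which gave 14807630 to 18191998 reads on genes per library. These reads describe depth only and entered no test.

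A pseudocount of 1 was added, log2 was taken, and 12341 genes averaging 1 FPKM or more were tested using limma 3.58.1 in R 4.3.3 with an intensity trend, 4 group means over all 12 libraries, two-sided tests and Benjamini-Hochberg adjustment over all genes tested at 0.05. The fits with and without the block were tested on simulated data with the same spread for every gene. A shift of replicate 3 was simulated only for the fit with the block, so the fit without it was not tested under such a shift. The replicate numbers come from the sample labels. Deviations from the group means correlated between libraries of the same number in all 18 pairs. The r ran from 0.702 to 0.774 for number 3 and from 0.349 to 0.533 for numbers 1 and 2. A shift of replicate 3 shared by the groups by itself makes every such r positive. The check therefore cannot show whether numbers 1 and 2 pair across groups. The numbers were taken to pair the libraries, and the fit with the replicate number as a block is given where it changes a call. The 10 genes and the lists were chosen with earlier results of these data known. Genes named are the 10, the 3 tested genes of each list with the largest NH4Cl difference against control, every gene of a list of at most 4, and the 8 genes most like GDF15. Alternatives were another pseudocount, filter, scaling, trend, choice of groups, the replicate block and leaving out libraries. Tables and figures used Python 3.11.15 with numpy 2.4.6, pandas 2.3.3 and matplotlib 3.10.9.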

Additional observations from a re-analysis of the deposited data

How the results depend on the processing

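The numbers of the 10 genes that passed were 0 in all 6 comparisons and kept that value with a pseudocount of 0.1, no level filter, a filter of 5 FPKM, median centring, no intensity trend and only the groups compared (which gives no interaction). The stricter filter removed CHAC1 and ASNS. Scaling libraries to the same sum gave 1 in each of the 3 NH4Cl comparisons, and the share of all genes with that scaling is not given here. The replicate block gave 2 for NH4Cl against control, 4 for both agents against TGF-β and 3 for both against control, and replicates 1 and 2 only gave 3, 4 and 3. The wider pathway count of 0 became 8 and 12 with the replicate block, and 5 and 10 with replicates 1 and 2 only. The block changed no count of the 10 genes in the TGF-β comparisons or the interaction.

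With the replicate block and each library left out in turn, the counts ran from 2 to 3 for NH4Cl against control, from 2 to 5 for both agents against TGF-β and from 2 to 5 for both against control. With a library left out the fit pools the spread of those that remain. Further settings of the paired model were added after seeing the data. Replicates 1 and 2 only gave 3, 6 and 5 of the 10 genes. Leaving out single libraries gave from 3 to 9 and from 7 to 13 wider pathway genes. Counts of single lists with the block, also added, ran with 1 library left out over 0 to 1 for eIF2α kinases against TGF-β and 0 to 1 for eIF2 and eIF2B against control. They ran over 0 to 2 and 1 to 3 for amino acid synthesis in the 2 comparisons, 0 to 2 and 1 to 3 for amino acid transport, and 2 to 4 in both for other ATF4 or CHOP targets. For the ATF6 and IRE1 arm they ran over 3 to 5 and 1 to 3, for p53 targets against control over 2 to 6, and for the relatives over 0 to 2 and 1 to 2. The share of all genes that passed with 1 library left out, or with the block in replicates 1 and 2 only, is not given here. These counts are therefore not read as results about the genes or lists. The cause of these shifts was not tested.

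Small differences turned sign when single libraries were left out of the model without the block. For TGF-β against control, the ranges were GDF15 -0.15 to 0.22, ATF4 -0.11 to 0.15, DDIT3 -0.59 to 0.41, ATF3 -0.31 to 0.30 and TRIB3 -0.40 to 0.36. They were CHAC1 -0.47 to 0.23, SESN2 -0.43 to 0.31, ASNS -0.54 to 0.15, PSAT1 -0.13 to 0.024 and DDIT4 -0.76 to 0.73 for the other 5. For TGF-β in the presence of NH4Cl, the ranges were GDF15 -0.20 to 0.18, ATF4 -0.042 to 0.10, DDIT3 -0.32 to 0.43, ATF3 -0.25 to 0.27 and TRIB3 -0.24 to 0.31. They were CHAC1 -0.11 to 0.36, SESN2 -0.32 to 0.29, ASNS -0.29 to 0.30, PSAT1 -0.071 to 0.0054 and DDIT4 -0.45 to 0.85 for the other 5. For the interaction, the ranges were GDF15 -0.22 to 0.16, ATF4 -0.13 to 0.14, DDIT3 -0.37 to 0.63, ATF3 -0.31 to 0.31 and TRIB3 -0.32 to 0.44. They were CHAC1 -0.077 to 0.62, SESN2 -0.31 to 0.43, ASNS -0.15 to 0.55, PSAT1 -0.064 to 0.088 and DDIT4 -0.52 to 0.97 for the other 5. With replicates 1 and 2 only, the sign turned for TGF-β against control in ATF3 -0.021, TRIB3 -0.038 and DDIT4 -0.042. It also turned for TGF-β with NH4Cl in GDF15 -0.037, ATF3 0.030 and PSAT1 0.014. A turn was seen for the interaction in ATF4 0.022 and ATF3 0.051. With libraries centred on their median, the sign turned for TGF-β against control in TRIB3 -0.0043 and DDIT4 -0.00075. It also turned for the interaction in GDF15 0.0027 and ATF4 0.0026. With a pseudocount of 0.1, the sign turned for TGF-β against control in DDIT4 -4.5e-05. None of these values passed.

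The settings for list genes were added after seeing the data. The ranges below are log2 differences with single libraries left out of the model without the block. They are given for named list genes whose sign turned. For NH4Cl against control the ranges were EIF2AK1 -0.088 to 0.0041, EIF2AK2 -0.23 to 0.012, EIF2AK3 -0.12 to 0.13, EIF2AK4 -0.10 to 0.10, PPP1R15A -0.32 to 0.12 and CEBPB -0.0089 to 0.49. They were CEBPG -0.11 to 0.26, STC2 -0.0039 to 0.69, HSPA5 -0.35 to 0.014 and TRIB1 -0.0087 to 0.28 for the others. For both agents against TGF-β they were EIF2AK3 -0.012 to 0.15, EIF2AK4 -0.17 to 0.012, EIF2B1 -0.15 to 0.0088, EIF2B3 -0.14 to 0.052, PPP1R15A -0.29 to 0.23, STC2 -0.11 to 0.65 and HSPA5 -0.25 to 0.12. Against control the sign also turned for EIF2AK3 -0.032 and EIF2AK4 -0.010 with replicates 1 and 2 only and EIF2AK4 -0.0055 with median centring. For the genes most like GDF15, 2 of 8 remained without centring and 7 of 8 with a pseudocount of 0.1. Depth limits ASNS and CHAC1 most, at 47 to 219 and 78 to 272 reads per library.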
